A study of Sus scrofa with 9 samples.

Results

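Hepatocyte lineage transcription factors are the DNA-binding proteins that establish liver cells in the embryo and keep them differentiated in the adult. HNF4A, FOXA1, FOXA2, FOXA3, CEBPA, CEBPB, CEBPD, ONECUT1 and PROX1 were taken by symbol from the deposited count table, and all 9 were found among its 29837 gene symbols. All 9 also passed the filter on low counts that left 14100 genes for testing. They were compared between the livers of 4 MIDY pigs and 5 wild type (WT) pigs. In MIDY, a diabetes of youth caused by a mutated INS gene, the transgenic animals carry the C94Y change of insulin, which the WT pigs lack. All animals were female and 2 years old, and diabetic animals received short and long acting insulin, so that genotype, diabetes and insulin treatment cannot be told apart. Each library came from the RNA of 1 liver after ribosomal depletion.

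These factors work as a network in which the members bind each other's genes as well as those of plasma proteins and metabolic enzymes. FOXA proteins are pioneer factors that open chromatin, HNF4A is a nuclear receptor that holds most hepatocyte genes active, and ONECUT1, a cut homeodomain protein also known as HNF6, acts in both hepatocytes and bile duct cells. The C/EBP proteins divide the tasks of the differentiated state (CEBPA) and of the response to cytokines, glucocorticoids and cAMP (CEBPB and CEBPD), whereas PROX1 is a homeodomain protein that restrains HNF4A and other nuclear receptors and also marks lymphatic endothelium. Hormones of fasting and feeding act on some of them in rodents, in part through changes to the proteins, which RNA counts do not measure.

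Libraries held 14819335 to 18708976 counts in MIDY and 14115415 to 19533463 in WT. Hepatocyte markers (ALB, TTR, APOA1 and others, 8 genes) summed to 123849 to 147570 CPM in MIDY and 91876 to 147141 CPM in WT, where CPM is counts per 1e6 counts of the scaled library, as fits the labelled tissue. Of the pancreas markers, which matter because HNF4A, FOXA2 and ONECUT1 are also made there, GCG and PNLIP had 0 counts in all libraries and the 9 markers in the table summed to 1.32 to 4.35 CPM in MIDY and 0.48 to 2.60 CPM in WT. INS itself had at most 2 counts in any library and cannot check the genotype in liver. A pair of WT libraries stood apart on principal components of the 500 most variable genes. WT replicate 2 lay at 25.2 on the second component, against -11.0 to 4.12 for the 8 other libraries, and WT replicate 1 lay at 0.90 on the first, with MIDY at 6.51 to 24.1 and the other WT libraries at -20.0 to -11.8.

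No member of the network was called higher or lower in MIDY than in WT liver. With edgeR's quasi-likelihood test, 0 of the 9 passed a Benjamini-Hochberg adjusted p below 0.05 over all 14100 genes, and 0 had an unadjusted p below 0.05. Of all genes tested 1.17% were called, and 16.1% had an unadjusted p below 0.05. DESeq2 and limma voom likewise called 0 of the 9, and 0 had an unadjusted p below 0.05 in either. In 0 of the 9 did the levels of the groups stay apart, a separation seen in 6.35% of all genes. The fitted log2 fold changes of MIDY over WT ran from -0.18 for FOXA1 to 0.34 for FOXA3, with a median of 0.04, beside a median of -0.0046 over all genes tested. The width of the confidence intervals differed among members, and they bound the change that each could hold.

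**Figure D1:**
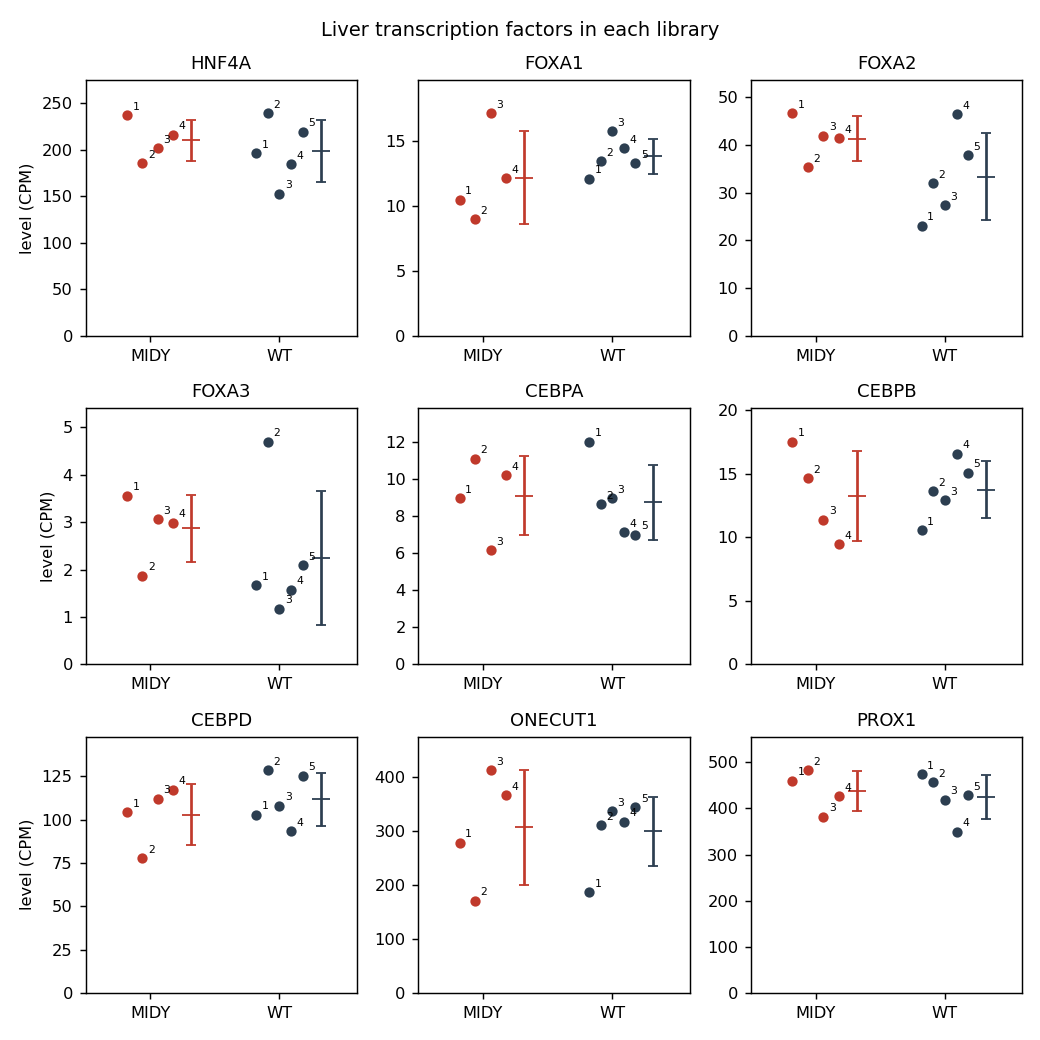
Level of each factor in CPM (linear axis from 0) in the 4 MIDY libraries (red) and 5 WT libraries (dark blue); small digits are replicate numbers and bars are mean ± SD. The groups overlap in every panel, ONECUT1 spans 171 to 414 CPM in MIDY, and FOXA3 in WT replicate 2 (4.70 CPM) lies above the other WT libraries.

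HNF4A, the nuclear receptor at the centre of the network (chromosome 17, 46783772 to 46847505, Sscrofa11.1), had 237, 186, 201 and 216 CPM in MIDY replicates 1 to 4, against 196, 239, 153, 184 and 219 CPM in WT replicates 1 to 5. All 4 MIDY values lay within the WT range. Means were 209.9 ± 21.8 CPM in MIDY (SD, n = 4) and 198 ± 33.2 CPM in WT (SD, n = 5), a log2 fold change of 0.08 ± 0.13 (SE; edgeR adjusted p = 0.817). In linear terms the fold change was 1.06, with a 95% confidence interval of 0.867 to 1.29. A long non-coding RNA model, LOC102159476, overlaps HNF4A, and since the strand setting of the counting is not given in the sources used here, reads of both cannot be told apart with certainty. LOC102159476 had 50.3 CPM in MIDY and 41.8 CPM in WT (log2 fold change 0.27 ± 0.20 SE; edgeR adjusted p = 0.554).

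Of the 3 FOXA pioneer factors, FOXA2 had the lowest p of all members. FOXA2 (chromosome 17, 29997397 to 30001704) had 46.6, 35.3, 41.9 and 41.4 CPM in the MIDY libraries, against 23.1, 31.9, 27.3, 46.4 and 37.8 CPM in the WT libraries. The MIDY values were close together in the upper part of the range, while WT spread over 2.01-fold. The log2 fold change was 0.31 ± 0.18 (SE; edgeR adjusted p = 0.425), and its confidence interval in linear terms was 0.947 to 1.62. Without WT replicate 4, the highest WT library, FOXA2 had a log2 fold change of 0.46 and still did not pass (edgeR adjusted p = 0.218). A protein-coding model, LOC110257410, lies within 10 kb of FOXA2 without overlapping it. It had 26.7 CPM in MIDY and 19.5 CPM in WT (log2 fold change 0.457 ± 0.172 SE, edgeR adjusted p = 0.2177).

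FOXA1 (chromosome 7, 62471233 to 62479638), which shares early liver induction with FOXA2, had 10.5, 8.95, 17.1 and 12.1 CPM in MIDY and 12.1, 13.4, 15.7, 14.4 and 13.3 CPM in WT. The MIDY libraries spread on both sides of the WT libraries, with 2 below all of them and 1 above. Its log2 fold change was -0.18 ± 0.17 (SE; edgeR adjusted p = 0.662), and -0.39 without MIDY replicate 3 (edgeR adjusted p = 0.306). FOXA3 (chromosome 6, 52181095 to 52188777), the FOXA gene that in rodents takes on most of its expression in the mature liver, was read at 17 to 94 counts per library. It had 3.56, 1.87, 3.06 and 2.99 CPM in MIDY, against 1.67, 4.70, 1.17, 1.58 and 2.09 CPM in WT. WT replicate 2 was the highest of all 9 libraries, and the interval of 0.725 to 2.21 in linear terms was the widest of the members. Without WT replicate 2 the log2 fold change of FOXA3 was 0.81, in place of 0.34 ± 0.37 (SE), and was not called (edgeR adjusted p = 0.229, against 0.706 with it). SYMPK and IRF2BP1 lie within 10 kb of FOXA3 without overlapping it and were not called. Their log2 fold changes were 0.17 ± 0.16 and -0.41 ± 0.14 (SE, edgeR adjusted p = 0.644 and 0.175).

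Relative use of the FOXA genes can be read within a library, free of scaling. FOXA2 made up 76.9, 76.5, 67.5 and 73.3% of the FOXA counts in MIDY, against 62.6, 63.8, 61.8, 74.3 and 71.1% in WT. The means were 73.5 ± 4.34% in MIDY (SD, n = 4) and 66.7 ± 5.64% in WT (SD, n = 5), and the groups overlapped. FOXA1 took 21.4 ± 4.44% in MIDY and 28.7 ± 5.31% in WT (SD, n = 4 and 5), again with overlap. These are shares of counts and not of molecules, since the 3 transcripts differ in length.

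CEBPA (chromosome 6, 43083200 to 43085884), the C/EBP factor of the quiescent, metabolically active hepatocyte, had 8.98, 11.1, 6.16 and 10.2 CPM in MIDY and 12.03, 8.64, 8.97, 7.12 and 7.0 CPM in WT. Its log2 fold change of 0.06 ± 0.20 (SE; edgeR adjusted p = 0.921) was close to 0 and changed sign in 4 of 18 alternatives. CEBPB (chromosome 17, 51722633 to 51723673), which glucagon, glucocorticoids and cytokines induce in rodent liver, had 17.5, 14.6, 11.4 and 9.44 CPM in MIDY, against 10.6, 13.6, 12.9, 16.6 and 15.1 CPM in WT. MIDY replicate 1 was the highest and MIDY replicate 4 the lowest of all 9 libraries, so that the WT range lay inside the MIDY range. Its log2 fold change was -0.06 ± 0.19 (SE; edgeR adjusted p = 0.915) and changed sign in 3 of the 18.

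CEBPD (chromosome 4, 79872863 to 79874481), a partner of CEBPB in the acute phase response, had 104, 77.6, 112 and 117 CPM in MIDY, against 103, 129, 108, 93.2 and 125 CPM in WT. MIDY replicate 2 alone lay below the WT range. The log2 fold change was -0.12 ± 0.14 (SE; edgeR adjusted p = 0.724), an interval of 0.749 to 1.13 in linear terms, and it was -0.0051 without MIDY replicate 2 (edgeR adjusted p = 0.991). The model of the neighbouring gene SPIDR begins within 10 kb of CEBPD without overlapping it and was not called (-0.02 on the log2 scale; edgeR adjusted p = 0.969).

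The balance among C/EBP transcripts varied from animal to animal more than between the groups. CEBPB counts were 1.95, 1.32, 1.85 and 0.92 times those of CEBPA in MIDY, against 0.88, 1.58, 1.44, 2.33 and 2.15 times in WT. The lowest ratio was in WT replicate 1 and the highest in WT replicate 4, with all MIDY libraries between them. CEBPD counts were 12.1 ± 4.61 times those of CEBPA in MIDY (SD, n = 4) and 13.3 ± 3.46 times in WT (SD, n = 5). The C/EBP genes have no introns, so their model lengths of 2685 bases (CEBPA), 1041 bases (CEBPB) and 1619 bases (CEBPD) in RefSeq on Sscrofa11.1 allow levels per kilobase to be set side by side. Per kilobase of model, CEBPD stood at 19.99 ± 7.64 times CEBPA in MIDY and 22.03 ± 5.73 times in WT, and CEBPB at 3.89 ± 1.24 times CEBPA in MIDY and 4.32 ± 1.501 times in WT (SD, n = 4 and 5). By these model lengths the order CEBPD, CEBPB, CEBPA held for the group means of both. The annotation used in the counting was not found, so the spans counted may differ from these models. CEBPA was read at 113 to 195 counts per library. The short model of CEBPB makes its value per kilobase uncertain, because reads in any untranslated sequence outside it would not be counted.

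ONECUT1 (chromosome 1, 118913400 to 118958140) was the member with the largest spread between animals for its depth of reading. It had 279, 171, 414 and 367 CPM in MIDY, against 187, 312, 337, 318 and 345 CPM in WT. The MIDY libraries spanned 2.41-fold and the WT libraries 1.84-fold, with MIDY replicate 2 and WT replicate 1 lowest. Group means were 308 ± 107 CPM in MIDY (SD, n = 4) and 299.7 ± 64.3 CPM in WT (SD, n = 5), with a log2 fold change of 0.04 ± 0.25 (SE; edgeR adjusted p = 0.962). The interval of 0.703 to 1.501 in linear terms was wide although every library held at least 2470 counts of this gene. Its sign changed in 5 of the 18 alternatives.

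PROX1 (chromosome 9, 129527704 to 129583693) was the steadiest member, with 459.8, 483, 382 and 426 CPM in MIDY and 474, 457, 419, 349.9 and 428 CPM in WT. Only MIDY replicate 2 lay outside the WT range, slightly above it. The means were 438 ± 43.8 CPM in MIDY (SD, n = 4) and 425 ± 47.6 CPM in WT (SD, n = 5), with a log2 fold change of 0.04 ± 0.12 (SE; edgeR adjusted p = 0.906) and an interval of 0.863 to 1.23 in linear terms. A protein-coding model, LOC106507881, overlaps the higher coordinates of PROX1 and had 127 CPM in MIDY against 84.6 CPM in WT (log2 fold change 0.59 ± 0.19 SE; edgeR adjusted p = 0.158), so PROX1 counts are uncertain where the models meet. In bulk tissue fewer cells of a type and less RNA per cell cannot be told apart. The lymphatic endothelial markers, whose cells also make PROX1, had 0 of 5 tested genes called by edgeR, beside 1.17% of all genes. An unadjusted p below 0.05 was seen in 0 of the 5, beside 16.1% of all genes, and their median log2 fold change was -0.15. Most of their summed level was that of RELN, which stellate cells also make (179 ± 15.8 CPM in MIDY and 175 ± 28.8 CPM in WT), while CCL21, a chemokine of lymphatic vessels, had 2.16 ± 1.07 CPM in MIDY and 3.31 ± 0.896 CPM in WT, and FLT4, a receptor of lymphatic growth factors, 32.7 ± 1.89 CPM in MIDY and 37.1 ± 1.49 CPM in WT (SD, n = 4 and 5). The list summed to 231 to 276 CPM in MIDY and 229 to 301 CPM in WT. LYVE1, with 22.6 ± 6.02 CPM in MIDY and 25.1 ± 5.02 CPM in WT (SD, n = 4 and 5), was also listed as a marker of sinusoidal endothelium. PDPN had 2 to 8 counts per library and was not tested, so the list says little of lymphatic cells alone.

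**Figure D2:**
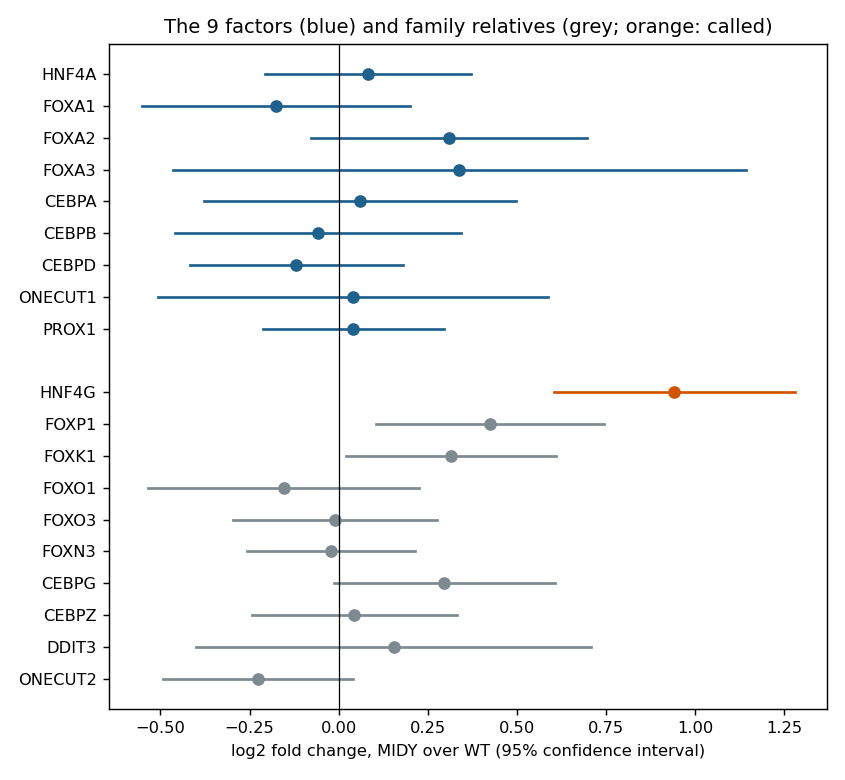
Fitted log2 fold change of MIDY over WT with 95% confidence intervals for the 9 factors (blue), and for the tested relatives of their families (grey, or orange where called). Every interval of the 9 includes 0, and HNF4G, at 0.94, is the called relative.

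The members differed in how far they varied between animals of 1 group. The SD of log2 CPM about the group means was 0.16 for PROX1, 0.21 for HNF4A and 0.23 for CEBPD, below the median of 0.26 over all genes tested. It was 0.28 for FOXA1, 0.31 for CEBPB, 0.32 for FOXA2 and 0.34 for CEBPA, 0.46 for ONECUT1 and 0.60 for FOXA3. Counting error alone would give 0.02 for ONECUT1 and 0.25 for FOXA3 on the same scale. Of the 1152 genes with a mean of at least 100 CPM, 93.6% varied less than ONECUT1, against 59.4% for HNF4A and 38.3% for PROX1.

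**Figure D3:**
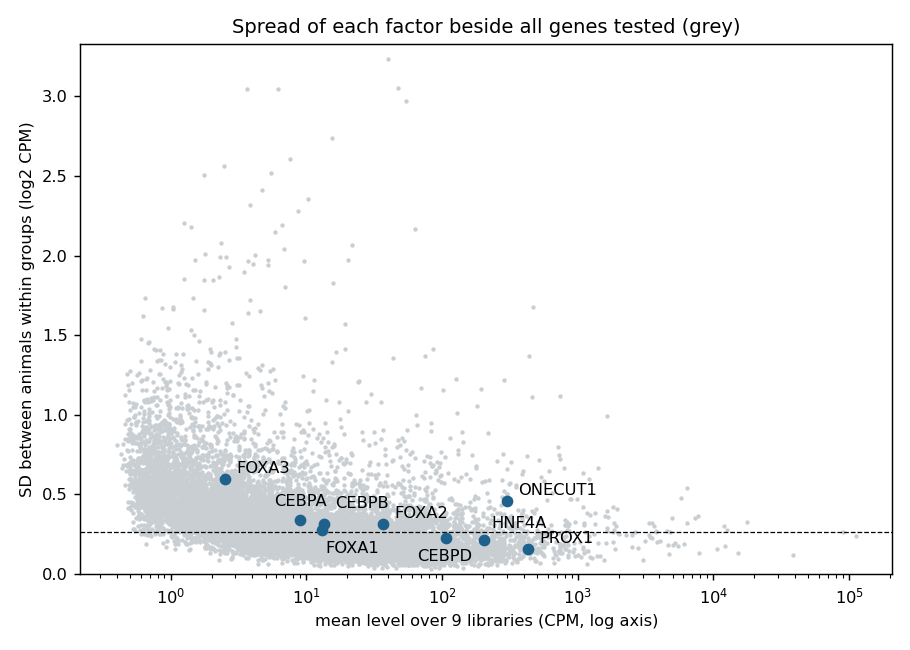
SD of log2 CPM between animals within groups against mean level over the 9 libraries (CPM, log axis) for the 9 factors (blue) and for all 14100 genes tested (grey); the dashed line is the median of all genes, 0.26. ONECUT1, at 0.46, stands high among genes of its level and PROX1, at 0.16, lies below the line.

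Several members were at an end of their group's range in the same animals. MIDY replicate 2 and WT replicate 1 had the lowest FOXA1, FOXA2 and ONECUT1 of their groups, and the highest CEBPA and PROX1. These were also the libraries with the fewest counts of their groups (14819335 in MIDY replicate 2 and 14115415 in WT replicate 1), and the part of depth in these levels was not tested. In 5 of the 9 members both libraries were thus at the same end of the range, 3 lowest and 2 highest. Of all genes tested 5.94% were lowest and 5.35% highest in both. The 5 members are not separate cases, since some of their levels went together or apart within groups. Pearson's r over the 9 libraries was 0.82 for FOXA1 and ONECUT1, -0.77 for CEBPA and ONECUT1, and 0.22 for FOXA1 and FOXA2. The pattern was read from the members' own levels and was not tested. WT replicate 2 was the highest WT library for HNF4A, FOXA3 and CEBPD.

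Genes whose level followed each member most closely from animal to animal were sought among 8628 genes with a mean of at least 5 CPM, after group means were subtracted. The measure was Pearson's r over the 9 libraries, and the largest of so many values is high by selection. HNF4A was followed most closely by TTC39C (r = 0.96), IL1RAP and CSE1L (0.95 each). FOXA1 was followed by NFIB (0.97), a nuclear factor I gene, and by ADAMTS5 and FAM46A (0.93 each), FOXA2 by DMBT1 (0.98), HSPA4 and ENTPD4 (0.97 each), and FOXA3 by RASSF2 (0.97), UTP6 (0.96) and TPM4 (0.95). CEBPA was followed by PLGRKT (0.97), YPEL3 and TRIM24 (0.94 each), CEBPB by SLC25A25 (0.98), RNF14 (0.97) and LIPG (0.96), and CEBPD by KBTBD2 (0.98), RBM8A (0.94) and JCAD (0.93). ONECUT1 was followed by SLC17A2 (0.97), a phosphate transporter family gene, TGDS (0.96) and FSTL1 (0.95), and PROX1 by POT1, REPS1 (0.92 each) and MEMO1 (0.90). All libraries share their scaling with these genes, and no test was made of the likeness.

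Among relatives of the same protein families, HNF4G was called higher in MIDY liver. HNF4G, the paralog of HNF4A, is known mainly from gut, kidney and pancreas. It had 28.0, 21.4, 26.8 and 20.03 CPM in MIDY, against 12.7, 9.39, 14.01, 15.3 and 11.4 CPM in WT. The lowest MIDY value was above the highest WT value, where the groups do not overlap in 6.35% of all genes tested. The means were 24.0 ± 3.93 CPM in MIDY (SD, n = 4) and 12.5 ± 2.28 CPM in WT (SD, n = 5), a log2 fold change of 0.94 ± 0.16 (SE; edgeR adjusted p = 0.0182). With each library left out in turn it passed 8 of 9 times, the exception being MIDY replicate 3 (edgeR adjusted p = 0.0570), and it did not pass without WT replicates 1 and 2 (edgeR adjusted p = 0.0627).

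Counts of HNF4G were 0.118, 0.115, 0.133 and 0.0928 times those of HNF4A in MIDY, against 0.0645, 0.0393, 0.0919, 0.0829 and 0.0521 times in WT. The ratio did not overlap between the groups, though MIDY replicate 4 and WT replicate 3 lay next to each other. It averaged 0.115 ± 0.0166 in MIDY (SD, n = 4) and 0.0661 ± 0.0216 in WT (SD, n = 5), and was looked at after the call of HNF4G was known. Because the transcripts differ in length, only its change between libraries can be read, not the share of each protein. Of 7 intestine markers, from a tissue rich in HNF4G, 1 was tested. FABP2 had 0 counts in all libraries, and CDX1 and CDX2 had at most 2 in any. The list summed to 2.43 to 4.35 CPM in MIDY and 5.42 to 14.7 CPM in WT. The tested marker was VIL1, with 2.91 ± 0.874 CPM in MIDY and 7.75 ± 2.15 CPM in WT (SD, n = 4 and 5), which was called lower, as given below.

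**Figure D4:**
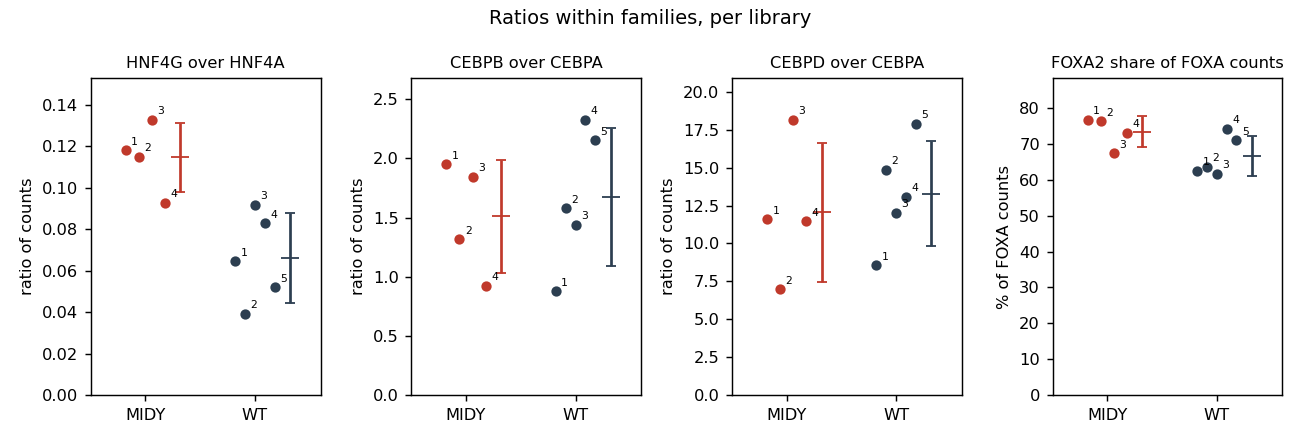
Ratio of counts per library for HNF4G over HNF4A, CEBPB over CEBPA and CEBPD over CEBPA, and FOXA2 as a percentage of FOXA counts, in MIDY (red) and WT (dark blue), with replicate numbers and mean ± SD. The HNF4G over HNF4A ratio is at least 0.0928 in MIDY and at most 0.0919 in WT, while the other panels overlap.

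HNF4G was 1 of 10 tested relatives, of which 1 was called higher and 0 lower, beside 0.816% and 0.355% of all genes. Of the relatives 3 had an unadjusted p below 0.05, beside 16.1% of all genes, and the median log2 fold change was 0.10. The forkhead repressor FOXP1 came next (135 ± 17.7 CPM in MIDY and 101 ± 20.9 CPM in WT, SD, n = 4 and 5; edgeR adjusted p = 0.187). ONECUT2, which shares binding sites and functions with ONECUT1, had 70.4 ± 5.97 CPM in MIDY and 82.4 ± 12.8 CPM in WT (SD, n = 4 and 5; edgeR adjusted p = 0.396). FOXO1, the forkhead factor that insulin keeps out of the nucleus, had a log2 fold change of -0.15 ± 0.17 (SE; edgeR adjusted p = 0.716).

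Of 36 other transcription factors of liver, 2 rose and 0 fell, beside 0.816% of all genes called higher and 0.355% called lower. TBX3, a T-box factor of hepatocytes near the central vein, had 38.4 ± 8.91 CPM in MIDY and 20.2 ± 4.04 CPM in WT, and CREB3L3, a membrane-bound factor of the fasted liver, 165 ± 37.5 CPM in MIDY and 100.1 ± 11.8 CPM in WT (SD, n = 4 and 5; edgeR adjusted p = 0.0310 and 0.0394). TBX3 kept its call only without MIDY replicates 1 or 4 or WT replicates 1 or 5, and CREB3L3 only without MIDY replicate 4 or WT replicate 1, among 9 fits that each lacked 1 library (highest edgeR adjusted p = 0.0846 and 0.114). The median log2 fold change of these 36 genes was 0.03, and 21 lay above 0. Of the 36, 9 had an unadjusted p below 0.05, beside 16.1% of all genes.

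Genes that the members are known to bind or activate in other mammals were counted by list, beside the 16.1% of all genes with an unadjusted p below 0.05. Of all genes 0.816% were called higher and 0.355% lower. Of 26 tested HNF4A target genes 1 rose and 0 fell, and 6 had an unadjusted p below 0.05, with a median log2 fold change of 0.14 and 18 above 0. That gene was CYP8B1, the sterol 12-hydroxylase (14.03 ± 13.1 CPM in MIDY and 0.19 ± 0.18 CPM in WT, SD, n = 4 and 5; edgeR adjusted p = 0.0146, and 0.0597 without WT replicates 1 and 2), while OTC of the urea cycle came next (904 ± 72.7 CPM in MIDY and 664 ± 69.2 CPM in WT, SD, n = 4 and 5; edgeR adjusted p = 0.0796). Of 14 tested FOXA target genes 0 were called by edgeR and 0 had an unadjusted p below 0.05, with a median log2 fold change of 0.02. CPT1A, of mitochondrial fatty acid entry, had the lowest p, with 99.6 ± 40.3 CPM in MIDY and 60.6 ± 23.0 CPM in WT (SD, n = 4 and 5; edgeR adjusted p = 0.311), and PCK1, which opens gluconeogenesis, came next (0.48 ± 0.22 log2, SE; edgeR adjusted p = 0.319).

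Of 25 tested C/EBP target genes 2 rose and 1 fell, 8 had an unadjusted p below 0.05, and the median log2 fold change was -0.22 with 10 above 0. GYS2, the liver glycogen synthase (1.02 ± 0.13), and ARG1, the arginase of the urea cycle (1.28 ± 0.24), rose, and CRP, an acute phase protein, fell (-1.45 ± 0.23, log2 ± SE; edgeR adjusted p = 0.00451, 0.0302 and 0.0202). ARG1 lost its call without MIDY replicates 1 or 2 or WT replicates 2 or 3, and CRP without MIDY replicate 2 (highest edgeR adjusted p = 0.0733 and 0.0540), while GYS2 was called whichever library was left out. ARG1 was also not called with 1 surrogate variable (edgeR adjusted p = 0.0523). CEBPB and CEBPD themselves were not called, as given above. Of 21 tested genes that respond to glucocorticoids or cAMP, 0 rose and 1 fell, and 7 had an unadjusted p below 0.05. The median log2 fold change of the 21 was -0.24, with 6 above 0. PDE4B, which degrades cAMP, had 7.88 ± 1.06 CPM in MIDY and 15.6 ± 3.75 CPM in WT (SD, n = 4 and 5; edgeR adjusted p = 0.0273). It kept its call only without MIDY replicates 1 or 4 or WT replicate 1 (edgeR adjusted p up to 0.0864 in the other such fits). KLF9, a glucocorticoid-induced factor and among the 6 above 0, came next in that list (log2 fold change 0.46 ± 0.13 SE; edgeR adjusted p = 0.111).

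**Figure D5:**
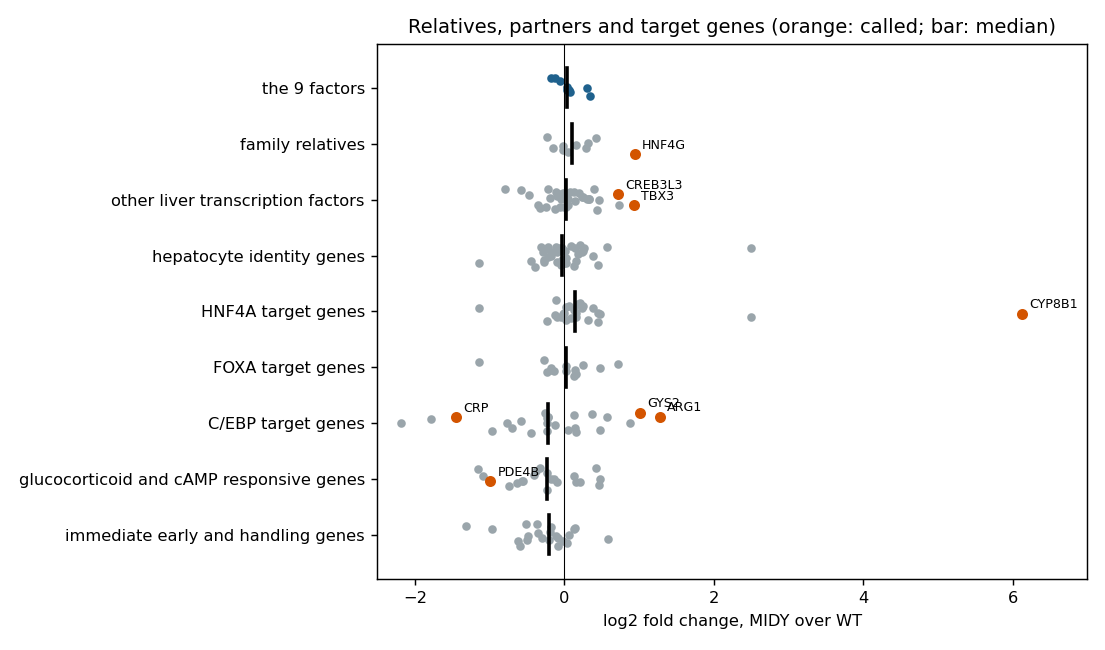
Log2 fold change of MIDY over WT of each tested gene in 9 lists, with called genes in orange and named, the 9 factors in blue, and a black bar at each list's median. The 9 factors lie between -0.18 and 0.34, and each other list holds 0 to 3 called genes, among them CYP8B1 at 6.12 and GYS2 at 1.02.

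Of 37 hepatocyte identity genes 0 were called by edgeR, 5 had an unadjusted p below 0.05, and the median log2 fold change was -0.02. OTC and APOA4, an apolipoprotein (2.49 ± 0.57 log2, SE; edgeR adjusted p = 0.0851), had the lowest p. Of 5 tested genes of immature hepatocytes 1 rose and 2 had an unadjusted p below 0.05, beside 0.816% and 16.1% of all genes. The median log2 fold change of the 5 was -0.04, with 2 above 0. PEG3, an imprinted zinc finger gene, had 18.8 ± 3.98 CPM in MIDY and 10.6 ± 0.915 CPM in WT (SD, n = 4 and 5; edgeR adjusted p = 0.0237). It kept its call only without MIDY replicates 1 or 4 or WT replicate 1, 3 of the 9 such fits (highest edgeR adjusted p = 0.0719). SOX4 came next (log2 fold change -0.46 ± 0.19 SE; edgeR adjusted p = 0.269), and the fetal liver gene AFP had 2 to 18 counts per library and was not tested. Immediate early genes, which mark handling of tissue and share the quick induction of CEBPB and CEBPD, had 0 of 22 called by edgeR and 4 with an unadjusted p below 0.05. Their median log2 fold change was -0.20, with JUN at -0.51 ± 0.19 and JUND at -0.51 ± 0.21 (log2 ± SE; edgeR adjusted p = 0.223 and 0.261), and they summed to 305 to 461 CPM in MIDY and 376 to 526 CPM in WT.

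Markers of other liver cells that share members of the network included none that was called. Over all genes tested 1.17% were called and 16.1% had an unadjusted p below 0.05 (edgeR). Biliary markers, whose cells make ONECUT1, FOXA1 and FOXA2, had 0 of 10 tested called by edgeR (2 with an unadjusted p below 0.05), a median log2 fold change of -0.41 and a sum of 51.9 to 72.9 CPM in MIDY and 52.2 to 118 CPM in WT. SPP1 had 7.91 ± 2.76 CPM in MIDY and 22.4 ± 14.9 CPM in WT, and EPCAM 1.71 ± 0.24 CPM in MIDY and 1.06 ± 0.22 CPM in WT (SD, n = 4 and 5; edgeR adjusted p = 0.204 and 0.224). Macrophages, which make CEBPB and CEBPD, were represented by 11 markers of which 0 were called by edgeR (4 with an unadjusted p below 0.05), with 847 to 1118 CPM in MIDY and 933 to 1342 CPM in WT. The median log2 fold change of the 11 was -0.21, with 2 above 0. MARCO (0.98 ± 0.29) and C1QC (-0.40 ± 0.14) had the lowest p (log2 ± SE; edgeR adjusted p = 0.138 and 0.179). Of 4 tested neutrophil markers 0 were called by edgeR (1 with an unadjusted p below 0.05), CXCR2 having the lowest p (log2 fold change -0.76 ± 0.19 SE; edgeR adjusted p = 0.0796) before CSF3R (0.443), and the list summed to 5.03 to 7.55 CPM in MIDY and 7.23 to 12.7 CPM in WT. The part of these cells in the levels of the 9 factors was not tested.

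The remaining marker lists held 3 called genes, all lower in MIDY. Of all genes tested, 1.17% were called, 0.355% were called lower, and 16.1% had an unadjusted p below 0.05 (edgeR). COL1A2, a collagen chain of stellate cells, fell by 0.81 ± 0.17, CD2, a T and NK cell receptor, fell by 0.90 ± 0.18, and VIL1, the microvillus protein villin, fell by 1.41 ± 0.25 (log2, SE; edgeR adjusted p = 0.0434, 0.0377 and 0.0234). Of 12 tested stellate cell and fibroblast markers 5 had an unadjusted p below 0.05, with a median log2 fold change of -0.35 and 4 above 0, and COL1A1 came next to COL1A2 (edgeR adjusted p = 0.0789). Of 7 tested lymphocyte markers 4 had an unadjusted p below 0.05, with a median of -0.81 and 0 above 0, and JCHAIN came next to CD2 (edgeR adjusted p = 0.197). VIL1 was the 1 tested intestine marker. Stellate cell and fibroblast markers summed to 462 to 546 CPM in MIDY and 509 to 729 CPM in WT, and lymphocyte markers to 22.9 to 31.0 CPM in MIDY and 34.3 to 73.9 CPM in WT. With 1 library left out, COL1A2 kept its call only without MIDY replicate 4 or WT replicate 1, CD2 only without WT replicates 1 or 5, and VIL1 only without MIDY replicate 4 or WT replicates 1 or 3 (highest edgeR adjusted p = 0.106, 0.109 and 0.0714). COL1A2 and CD2 were not called with total counts as the scaling (edgeR adjusted p = 0.0965 and 0.0536), nor CD2 with limma voom (adjusted p = 0.0568). Of the 12 called listed genes outside the 9 factors, GYS2, CRP, PDE4B and VIL1 were called without WT replicates 1 and 2. Markers of sinusoidal endothelium had 0 of 10 called by edgeR (2 with an unadjusted p below 0.05) and summed to 862 to 939 CPM in MIDY and 788 to 979 CPM in WT. The lowest edgeR adjusted p was 0.144 for STAB2 and 0.271 for PECAM1 there, 0.340 for FLT4 and 0.400 for CCL21 among lymphatic markers, 0.0955 for CPS1 and 0.198 for ASGR1 among hepatocyte markers, and 0.605 for CPA1, the pancreas marker that could be tested.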

How the data were processed

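RNA sequencing of 9 pig livers, 4 MIDY and 5 WT, was grouped by the genotype in the labels. Per the labels' protocols, Trizol RNA went into libraries of the Encore Complete kit after ribosomal depletion. The submitters' processing notes name STAR, HTSeq, DESeq2 and the build Sscrofa11.1, whereas versions, annotation and strand setting were not found in the sources used here. What the authors deposited are raw counts by symbol, with 0 unused columns. Symbols were matched to RefSeq genes of Sscrofa11.1 for positions and model lengths. The p-values set the difference between groups against the spread between animals within groups. Litter, pen and sequencing batch were not used here, so any effect of theirs was not separated from either.

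Counts passed filterByExpr, TMM scaling and the robust quasi-likelihood test of edgeR 4.0.16 in R 4.3.3, which was tested on simulated data. Adjusted p-values are Benjamini-Hochberg over all 14100 genes, and a gene was called below 0.05. Standard errors were derived from the F statistic, and 95% confidence intervals use the moderated degrees of freedom. CPM is counts over the TMM-scaled library size times 1e6. Alternatives were RLE factors, total counts, removal of the 10 most abundant genes, no filter, a minimum of 1 CPM in 4 libraries, DESeq2 1.42.0, voom of limma 3.58.1 with quality weights, a surrogate variable by sva 3.50.0, each library left out, and WT replicates 1 and 2 left out.

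Named genes are the 9 members, the 3 genes of most like pattern for each (log2 CPM with a prior count of 2), and the called genes and the 2 of lowest p in each list; other genes were named for their role or as background. The members and lists were chosen with earlier results of these data known, so their counts are descriptions and no set was tested. Some listed genes are not reported here and were left out of the counts of their lists. The depth was 14115415 to 19533463 counts per library.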

Additional observations from a re-analysis of the deposited data

Results flagged for a closer look

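In 2 of the 18 sets of values (9 factors in 2 groups), 1 library lay farther from the rest of its group than Dixon's criterion allows, where chance gives about 1 in 20. FOXA3 had 4.70 CPM in WT replicate 2, above 1.17 to 2.09 CPM in the other WT libraries, and the gap took 0.740 of the group's range. ONECUT1 had 187 CPM in WT replicate 1, below 312 to 345 CPM in the other WT libraries, with a gap of 0.789 of the range. FOXA3 was read at 94 counts in WT replicate 2, and ONECUT1 at 2694 counts in WT replicate 1.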

How the results depend on the processing

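None of the 9 factors was called under any of the 18 alternatives. With 1 library left out, uncalled fold changes near 0 turned in sign, in ranges of -0.0471 to 0.210 for CEBPA, -0.224 to 0.0678 for CEBPB, -0.135 to 0.238 for ONECUT1 and -0.0224 to 0.102 for PROX1 (log2). ONECUT1 also turned with 1 surrogate variable (-0.0271) and without WT replicates 1 and 2 (-0.119). An unadjusted p below 0.05 was seen for 1 factor in 4 fits: FOXA1 without MIDY replicate 3, FOXA2 without WT replicate 4, and FOXA3 without WT replicate 2 and without WT replicates 1 and 2 (edgeR). Over all genes, 115 were called higher and 50 lower; DESeq2 called 358 and 284, limma voom 81 lower, the surrogate variable 79 lower, and 42 and 24 were called without WT replicates 1 and 2. Of the 214 tested listed genes outside the 9, 7 were called higher and 5 lower; DESeq2 called 13 and 10, total counts 3 lower, and the fit without WT replicates 1 and 2 called 1 and 3. Leaving out 1 library gave 34 (MIDY replicate 2) to 152 (WT replicate 1) genes higher and 4 to 107 lower (the same libraries) over all genes, and 3 to 10 higher and 0 to 6 lower among the listed genes. The causes were not tested. No paired analysis was possible because the labels give no number that the groups share. Ratios per kilobase were not run for FOXA and HNF4 genes, whose models hold introns. FOXA3, at 17 to 94 counts per library, is the member that depth limits most.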
